A study of Rattus norvegicus with 6 samples.

Results

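The PHLDA genes Phlda1, Phlda2 and Phlda3 and the kinase genes Akt1 and Akt2 were examined in NRK-52E cells, an established line of rat kidney epithelial cells, with or without streptozotocin (STZ), a glucose-linked nitrosourea that alkylates DNA. The genes were taken by symbol from the deposited table of read counts, where all 5 were found among 18930 rows. RNA was sequenced from 3 samples kept in 10 mM of STZ for 24 h (STZ) and 3 vehicle-treated samples (Control), all labelled wild type. The composition of the vehicle is not stated for these samples, nor whether the samples were separate cultures, so errors here are the spread between these samples of 1 cell line. The 5 genes were selected on their STZ and Control counts in these same 6 samples, so their differences are given as a description, with standard errors and without p-values.

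AKT is a serine/threonine kinase that promotes survival and growth. It is recruited to the plasma membrane when its pleckstrin homology (PH) domain binds the phosphoinositides made by PI3K, and is there phosphorylated by PDK1 and mTORC2. PHLDA proteins are small proteins built around a PH domain. PHLDA3, encoded by a direct p53 target gene, competes with AKT for these lipids and so restrains it, whereas PHLDA2 is encoded by an imprinted gene that limits placental growth, and PHLDA1 (TDAG51) by a gene known to be induced by growth factors and stress.

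The stretches just upstream of the annotated starts of the PHLDA genes are shown first, since these genes share a domain but had unlike levels after STZ. Sequences were taken from RefSeq in build GRCr8, a later build than the Rnor6 genome used by the authors, and all 5 genes had an entry. Each run holds the 250 bases before the start on the strand of the gene, and capitals mark the GC box GGGCGG on either strand.
Phlda3 (chr13:49744753-49745002, + strand): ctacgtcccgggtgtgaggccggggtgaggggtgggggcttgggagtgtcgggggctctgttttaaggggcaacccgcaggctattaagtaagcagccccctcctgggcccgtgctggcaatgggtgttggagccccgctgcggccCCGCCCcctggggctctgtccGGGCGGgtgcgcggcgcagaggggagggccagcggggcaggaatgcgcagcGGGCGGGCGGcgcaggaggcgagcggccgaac
Phlda2 (chr1:208127242-208127491, - strand): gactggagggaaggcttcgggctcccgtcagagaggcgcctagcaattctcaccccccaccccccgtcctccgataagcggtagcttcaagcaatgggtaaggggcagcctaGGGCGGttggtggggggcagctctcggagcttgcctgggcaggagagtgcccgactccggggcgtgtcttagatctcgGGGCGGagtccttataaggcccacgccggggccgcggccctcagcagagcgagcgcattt
Phlda1 (chr7:48853440-48853689, + strand): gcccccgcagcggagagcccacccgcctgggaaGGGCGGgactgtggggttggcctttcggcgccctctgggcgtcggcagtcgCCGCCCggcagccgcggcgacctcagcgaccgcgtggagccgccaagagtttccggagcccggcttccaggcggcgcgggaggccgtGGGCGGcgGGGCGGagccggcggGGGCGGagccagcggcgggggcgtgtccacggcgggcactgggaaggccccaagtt

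These windows were rich in G and C, at 78.8% in Phlda1, 73.6% in Phlda3 and 66.4% in Phlda2, against a median of 51.2% over 33465 promoters of the same length. The GC box was present 5 times in Phlda1, 4 times in Phlda3 (where a pair overlaps) and 2 times in Phlda2, and 30.5% of all promoters held it at least 1 time. The Phlda2 window also held an exact match to the p53 decamer, GAGCTTGCCT, starting 112 bases before the start, and an exact CArG box, CCTTATAAGG, the element bound by serum response factor, starting 51 bases before it. The p53 decamer was matched at only 1 site in this window, and binding of p53 there was not tested. Among all promoters, the p53 decamer was present in 6.64% and the CArG box in 1.5%. Neither was matched exactly in the windows of Phlda1 and Phlda3, which says only that these letters are not in these windows. The AP-1 element TGANTCA, the FOXO element GTAAACA, the E-box CACGTG and the cyclic AMP response element TGACGTCA, searched on both strands, were not found in any of the 3 windows. The Akt1 and Akt2 windows, at 54.8% and 48.4% G and C, held no GC box.

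Total counts ranged from 10430924 to 15191349 per sample. Counts were scaled by the TMM method of edgeR, whose factors lay between 0.988 and 1.02, and values called normalized counts below are counts brought to the mean scaled library size. They compare samples for the same gene, not genes with each other, since they were not divided by gene length. The label of kidney epithelium was checked against marker genes. Of 8 epithelial markers analysed, Krt8 was abundant, at 14296.5 ± 506 normalized counts in Control and 19970.6 ± 100.2 in STZ (SD, n = 3), Cdh1 was low, at 32.1 ± 6.52 and 20.4 ± 6.88 (SD, n = 3), and 6 had at most 10 reads in every sample. The same held for 5 of 6 proximal tubule markers, 4 of 7 fibroblast markers and 6 of 8 leukocyte and endothelial markers. The remaining proximal tubule marker was Aqp1, at 163 ± 45.8 in Control and 67.6 ± 8.25 in STZ (SD, n = 3). Among fibroblast markers, Col3a1 stood at 671 ± 80.9 in Control and 265 ± 28.8 in STZ (SD, n = 3). Col1a1 stood at 377 ± 23.0 and 316 ± 52.8, and Pdgfrb at 244 ± 19.2 and 194 ± 10.8 (SD, n = 3). With the Control range given first and the STZ range after it, the summed normalized counts ran from 13762 to 14690 and from 19911 to 20116 for epithelial markers, from 123 to 205 and from 71.4 to 85.0 for proximal tubule markers, from 1241 to 1382 and from 699 to 832 for fibroblast markers, and from 41.9 to 72.8 and from 41.1 to 55.2 for leukocyte and endothelial markers. Ptprc, a leukocyte marker, and Pecam1, an endothelial marker, had at most 1 and 2 reads in any sample. Cd68 and Vwf of the same list had more, with up to 29 and 36 reads. Cd68 had 17.9 ± 8.66 normalized counts in Control and 23.8 ± 2.12 in STZ (SD, n = 3). Vwf had 32.5 ± 8.44 in Control and 14.1 ± 6.87 in STZ (SD, n = 3). The part of the marker genes in the results below was not tested.

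Phlda3 was several times higher in STZ. Its Control samples had 1265, 1219 and 1173.5 normalized counts (replicates 1 to 3 in order), and its STZ samples 3513, 3756 and 3449. The groups were widely separated, with the lowest STZ sample far above the highest Control sample. The means were 1219 ± 45.7 in Control and 3573 ± 162 in STZ (SD, n = 3), which is 2.93-fold, or a log2 fold change of 1.55 (standard error 0.04). Ordered by log2 fold change, Phlda3 stood at position 101 of the 11870 genes tested. Over these genes, all STZ samples lay above all Control samples in 28.6%, and below them in 27.7%.

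Phlda2 was barely detected in Control. Its Control samples held 6, 13 and 8 reads (replicates 1 to 3 in order), and its STZ samples 48, 31 and 53 reads. The 95% Poisson intervals, which cover counting error only, reached from 2.2 to 13.1 reads in Control replicate 1, from 6.92 to 22.2 in replicate 2 and from 3.45 to 15.8 in replicate 3, while the lowest STZ interval began at 21.1 reads. The groups therefore did not overlap in reads, though the interval of Control replicate 2 met that of STZ replicate 2. The normalized counts were 9.84 ± 4.24 in Control and 40.3 ± 5.90 in STZ (SD, n = 3), with a log2 fold change of 2.05 (standard error 0.30). The fold was estimated at 4.13. Only 1 Control sample but all 3 STZ samples reached the level asked for by the filter on low counts, so Phlda2 entered the fit through the group in which it was higher, and had to differ.

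Phlda1 was at similar levels in both groups. Its Control samples had 819, 895 and 891 normalized counts (replicates 1 to 3 in order), and its STZ samples 879, 934 and 884. The groups overlapped, with the means at 868 ± 42.9 in Control and 899 ± 30.4 in STZ (SD, n = 3). The log2 fold change of 0.0469 was smaller than its standard error of 0.0525.

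Akt1, the AKT isoform tied most closely to survival and growth, was slightly lower in STZ. Its Control samples had 4506, 4616 and 4682 normalized counts (replicates 1 to 3 in order), and its STZ samples 4020, 3985 and 3875. All STZ samples lay under all Control samples, as in 27.7% of all genes tested. The means were 4601 ± 89.1 and 3960.0 ± 75.5 (SD, n = 3), with a log2 fold change of -0.22 (standard error 0.04).

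Akt2, the isoform best known for insulin-stimulated glucose uptake, had a still smaller difference. Its Control samples had 1686, 1537 and 1639 normalized counts (replicates 1 to 3 in order), and its STZ samples 1478, 1467 and 1502. The groups did not overlap, with STZ lower as in 27.7% of all genes tested, but the lowest Control sample and the highest STZ sample were close. The means were 1621 ± 76.3 and 1482 ± 17.4 (SD, n = 3), with a log2 fold change of -0.13 (standard error 0.04). In GRCr8 the span of Akt2 overlaps that of C1h19orf47, listed in the counts as RGD1307554, which had 383 ± 5.81 normalized counts in Control and 453 ± 26.8 in STZ (SD, n = 3). Whether strand was used in counting is not given, and reads of the overlapping parts may not be fully separated. In bulk RNA, a change in RNA per cell and a change in the share of cells that express a gene cannot be told apart for any of these genes.

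**Figure D1:**
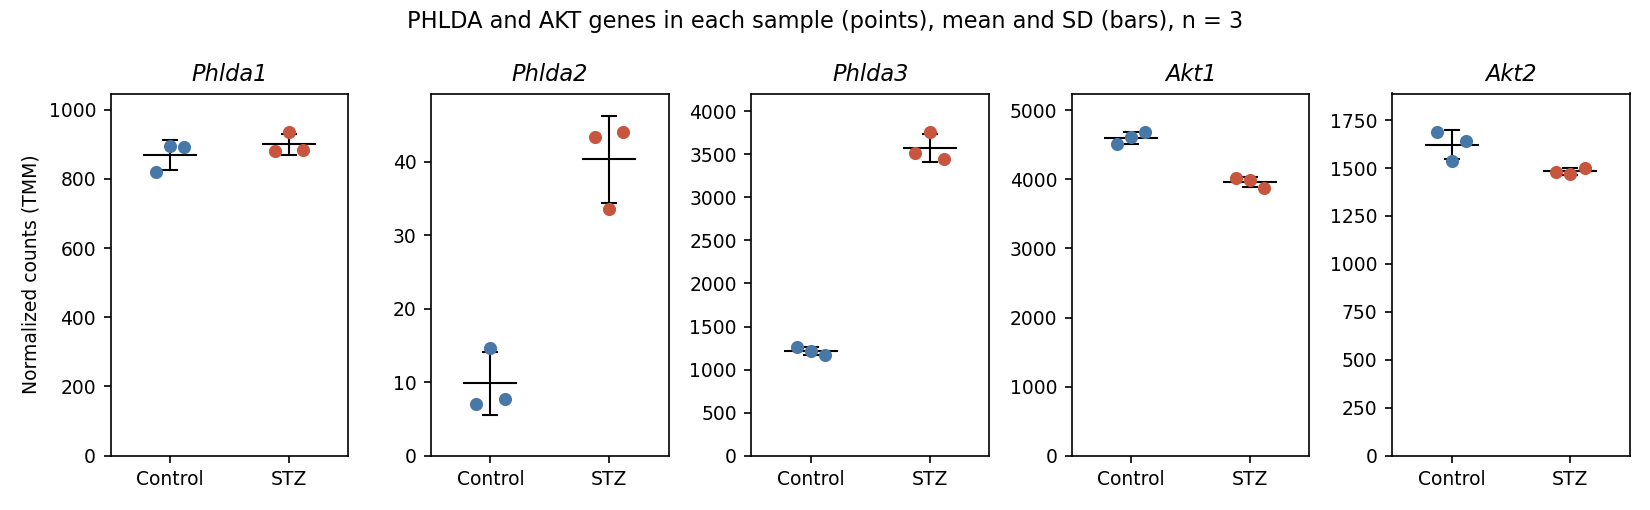
Normalized counts (y axis, from 0, a scale of its own in each panel) of the 5 genes in 3 Control and 3 STZ samples, with 1 point per sample and the mean and SD as bars. Phlda3 lies near 1219 in Control and 3573 in STZ, Phlda2 near 9.84 and 40.3, Phlda1 overlaps between groups, and Akt1 and Akt2 lie slightly lower in STZ.

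The genes were also compared within each library, where no scaling between libraries enters. These ratios of reads are not divided by gene length, so they compare groups and not the amounts of the proteins or RNAs. Phlda3 had 20.4, 19.8 and 18.6 reads per 100 reads of Akt1 and Akt2 together in the Control libraries, against 63.9, 68.9 and 64.1 in the STZ libraries. This is a ratio of 3.35 between the means of the groups. It is above the 2.93-fold of Phlda3 alone, which was taken after scaling, because the normalized counts of Akt1 and Akt2 were lower in STZ. Reads of the 3 PHLDA genes together stood at 33.7 ± 0.91 per 100 Akt1 and Akt2 reads in Control and at 82.9 ± 3.24 in STZ (SD, n = 3). The makeup of the PHLDA reads also differed between groups. Phlda3 made up 58.1 ± 2.07% of them in Control and 79.2 ± 0.36% in STZ, and Phlda1 41.4 ± 1.99% and 19.9 ± 0.23% (SD, n = 3). Phlda2 stayed under 1.01% of the PHLDA reads in every library, and added few reads to the sum.

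Akt1 and Akt2 were also set against each other within each library. Akt1 had 2.67, 3.003 and 2.86 reads per Akt2 read in the Control libraries, against 2.72, 2.72 and 2.58 in the STZ libraries. The groups overlapped, with means of 2.84 ± 0.17 and 2.67 ± 0.079 (SD, n = 3).

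**Figure D2:**
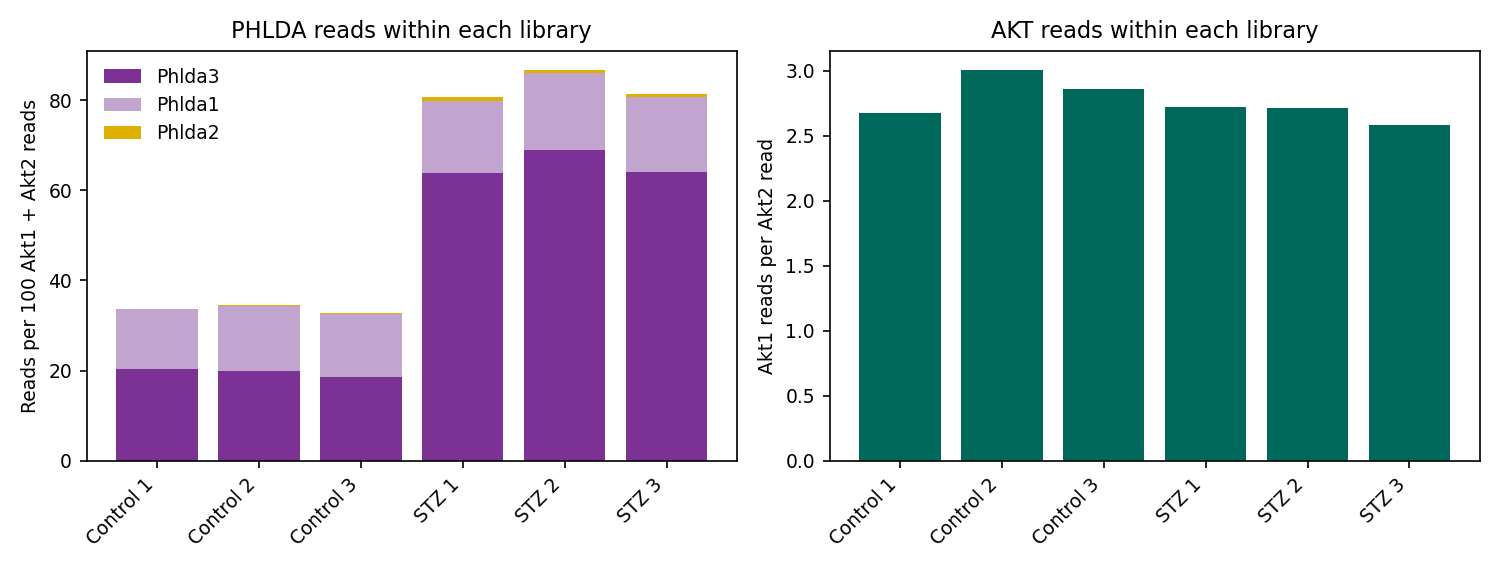
Left, reads of Phlda3, Phlda1 and Phlda2 per 100 reads of Akt1 and Akt2 (y axis) in each of the 6 libraries, stacked; right, Akt1 reads per Akt2 read (y axis) in the same libraries. The stacked PHLDA bars stand at 33.7 on average in Control and 82.9 in STZ, with Phlda2 too small to see in Control, and the Akt1 to Akt2 bars overlap between groups at 2.84 and 2.67 on average.

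The genes around the AKT and PHLDA genes in signaling were described by 11 lists, with the test of each gene made across all 11870 genes. Of 119 tested genes in these lists, 42 were higher in STZ and 27 lower with a Benjamini-Hochberg adjusted p below 0.05 in the quasi-likelihood test of edgeR, which is 35.3% and 22.7%. Over all genes tested, 25.9% were higher and 25.1% lower by the same rule, so a called gene is common in these data. The median log2 fold change of the listed genes was 0.03, against -0.01 over all genes tested. An absolute log2 fold change over 1 was reached by 6 of the higher genes and 1 of the lower genes, and in all genes tested by 3.37%.

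Among kinases close to AKT, Sgk1 and Sgk3 were higher, 2 of 3 tested. Sgk1, which shares the upstream activators of AKT and regulates sodium transport in the kidney, rose from 287 ± 21.3 to 360.3 ± 2.0 normalized counts (SD, n = 3), with a log2 fold change of 0.32. Sgk3, at a log2 fold change of 0.12, lost its call with library size only (adjusted p = 0.102 from the same test), with the upper quartile (adjusted p = 0.0554) and with DESeq2's Wald test (adjusted p = 0.0606), and also without Control replicate 2 (adjusted p = 0.119) or without STZ replicate 3 (adjusted p = 0.112), both from edgeR's test. Sgk2 had at most 1 read in any sample.

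Of 10 PI3K and adaptor genes tested, 3 were higher and 3 lower, with a median log2 fold change of -0.06. Among the regulatory subunits, which hold and stabilise the catalytic subunits, Pik3r3 rose, Pik3r1 fell, and Pik3r2 (p85-beta), at a log2 fold change of -0.07, did not pass the test. Pik3r3 (p55-gamma) rose from 971 ± 12.3 to 1778 ± 44.8 normalized counts (SD, n = 3), with a log2 fold change of 0.87 (standard error 0.05). Pik3r1 (p85-alpha) fell from 1314 ± 19.2 to 956 ± 38.0 (SD, n = 3), with a log2 fold change of -0.46 (standard error 0.05). Of the catalytic subunits, Pik3cd rose with a log2 fold change of 0.31, while Pik3ca and Pik3cb, the widely expressed catalytic subunits, stood at -0.09 and 0.02 and did not pass the test.

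Of 9 genes of PDK1 and mTORC2 tested, none was higher and 3 were lower, with a median of -0.06. Deptor, an inhibitor of mTOR, fell from 1524 ± 105 to 1043 ± 66.4 normalized counts (SD, n = 3), with a log2 fold change of -0.55. Mlst8, a subunit of both mTOR complexes, and Telo2, a factor in the assembly of mTOR, fell with log2 fold changes of -0.44 and -0.33. Pdpk1, which encodes PDK1, Rictor, the defining subunit of mTORC2, and Mtor itself stood at -0.06, -0.07 and -0.03 and did not pass the test.

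Genes that oppose AKT besides the PHLDA genes were looked at in 2 lists. Of 10 tested genes for lipid phosphatases and a PI3K inhibitor, 3 were higher and 2 lower, with a median log2 fold change of 0.05. Inpp5d (SHIP1), which removes the 5-phosphate from the PI3K product, rose from 84.3 ± 10.3 to 301 ± 21.4 normalized counts (SD, n = 3), with a log2 fold change of 1.83 (standard error 0.11). Synj1, a phosphoinositide phosphatase of endocytosis, rose with a log2 fold change of 0.47, and Pik3ip1, which inhibits PI3K, fell with one of -0.38. Of 12 AKT protein phosphatases and inhibitors tested, 1 was higher and 4 were lower, with a median of -0.08. Fkbp5, a scaffold that brings PHLPP to AKT, fell from 1013 ± 77.7 to 797 ± 32.6 normalized counts (SD, n = 3), with a log2 fold change of -0.35. The scaffold subunits of protein phosphatase 2A, Ppp2r1a and Ppp2r1b, fell with log2 fold changes of -0.18 and -0.23. Phlpp1 and Phlpp2, which dephosphorylate AKT, stood at -0.11 and -0.09 and did not pass the test. Without STZ replicate 3, the only higher gene of this list, Trib3, was no longer called, leaving 0 higher genes.

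Of 7 scaffolds and co-activators tested, 4 were higher and 2 lower, with a median of 0.14. The genes of the HSP90 chaperone, which keeps AKT stable, moved apart, with Hsp90aa1 rising (log2 fold change 0.32) and Hsp90ab1 falling (-0.20). Appl2, an endosomal adaptor related to the AKT partner APPL1, rose with a log2 fold change of 0.30, and lost its call without Control replicate 3 (adjusted p = 0.0517 from edgeR's test).

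Of 20 genes for AKT substrates tested, 6 were higher and 4 lower, with a median of 0.01. Cdkn1a (p21) and Mdm2, both also p53 targets, rose with log2 fold changes of 2.49 and 1.95. Acly, which makes cytosolic acetyl-CoA, fell from 5630.0 ± 253 to 3276 ± 134 normalized counts (SD, n = 3), with a log2 fold change of -0.78. Of the GSK3 kinase genes, Gsk3a rose with a log2 fold change of 0.17, while Gsk3b, at -0.0040, did not pass the test. Of the FOXO genes, Foxo4 fell with a log2 fold change of -0.37, while Foxo1, Foxo3 and Foxo6, at -0.05, 0.12 and 0.06, did not pass the test. FOXO factors are kept out of the nucleus by AKT, and of 18 genes they activate, 4 were higher and 3 lower, with a median of 0.03. Pdk4 rose most, with a log2 fold change of 1.23 (standard error 0.24), the only one of this list over 1. It had few reads, with 15, 15 and 26 in Control and 48, 38 and 68 in STZ (replicates 1 to 3 in order). Sesn3, Ccng2 and Cited2 rose with log2 fold changes of 0.53, 0.51 and 0.30. Klf15, Cdkn1b (p27) and Cat fell with log2 fold changes of -0.42, -0.27 and -0.13. Bcl2l11 (BIM), Txnip and Insr, at 0.01, 0.05 and -0.05, did not pass the test. Without Control replicate 1, the lower genes of this list numbered 1.

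Other genes for PH domain proteins were listed as relatives of the PHLDA genes. Of 11 tested, 6 were higher and 2 lower, with a median of 0.16. Phldb1, Phldb2 and Phldb3, which carry a similar name but encode larger proteins of the cell cortex, rose with log2 fold changes of 0.31, 0.25 and 0.49. Plekha5 fell from 207 ± 27.8 to 105 ± 9.07 normalized counts (SD, n = 3), with a log2 fold change of -0.97.

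**Figure D3:**
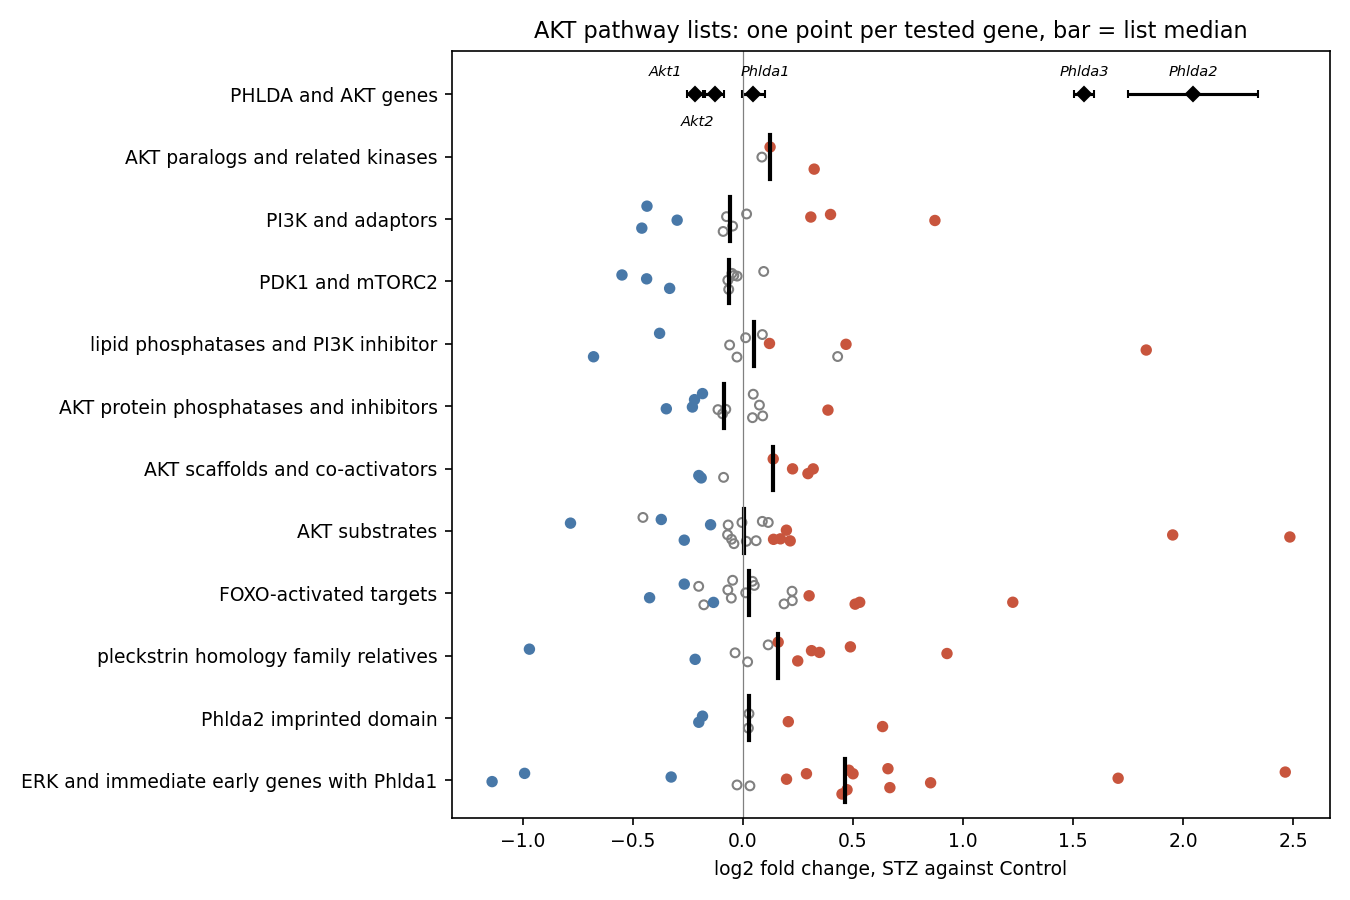
Log2 fold change of STZ against Control (x axis) for each tested gene of the 11 lists (rows), red where higher, blue where lower and open grey where the adjusted p was not under 0.05, with the list median as a black bar. The top row shows the 5 PHLDA and AKT genes with their standard errors and no test, where Phlda3 (1.55) and Phlda2 (2.05) lie beyond most listed genes and Akt1 (-0.22), Akt2 (-0.13) and Phlda1 (0.05) lie among them.

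Phlda1 is often described as an early response gene of growth factor and ERK signaling, so genes of that response were listed beside it. Of 16 tested, 11 were higher and 3 lower, with a median log2 fold change of 0.46. Epha2, a receptor tyrosine kinase, rose from 1274 ± 85.0 to 2305 ± 43.9 normalized counts (SD, n = 3), with a log2 fold change of 0.85. The AP-1 subunit gene Fosl1 rose from 41.3 ± 12.6 to 232 ± 21.1 (SD, n = 3), with a log2 fold change of 2.46, whereas Fos fell from 856 ± 36.4 to 390.5 ± 38.3 (SD, n = 3), with a log2 fold change of -1.14. Phlda1 itself stood at 0.05, below the median of this list.

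Phlda2 lies in an imprinted domain, and its neighbors were read from the GRCr8 annotation by name only. Of 15 listed genes of the domain analysed, which do not include the nearby Tnfrsf22 described below, 6 were tested, 2 of them higher and 2 lower, with a median log2 fold change of 0.03. Tssc4, a spliceosome assembly gene, rose from 1725 ± 61.6 to 2675 ± 28.6 normalized counts (SD, n = 3), with a log2 fold change of 0.63, and Osbpl5, a lipid transfer protein gene, rose with one of 0.21. Nap1l4, a histone chaperone gene that is the named neighbor of Phlda2 on the side of higher coordinates, fell with a log2 fold change of -0.20. Slc22a18, the neighbor on the other side, was at 8 reads or fewer throughout, and the imprinted genes Cdkn1c, Kcnq1, Igf2 and H19 had at most 3, 4, 2 and 2.

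The nearest named neighbors of the other genes were read in the same way. Beside Phlda3, Csrp1, a LIM domain protein gene, rose with a log2 fold change of 0.49 (standard error 0.04), and Tnni1, a muscle troponin gene, was at 2 reads or fewer throughout. A ribosomal protein pseudogene, Rpl11-ps12, lies within the span of Phlda3, and its reads may not be fully separated from those of Phlda3. Beside Akt1, Siva1, a pro-apoptotic gene regulated by p53 and E2F1, fell from 909 ± 65.7 to 502 ± 42.0 normalized counts (SD, n = 3), with a log2 fold change of -0.86 (standard error 0.06), while Zbtb42 on the other side stood at -0.02 and did not pass the test. Beside Phlda1, Nap1l1 and Krr1 fell with log2 fold changes of -0.16 and -0.40. Beside Akt2, Pld3 rose with one of 0.21.

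Genes most like each PHLDA gene were found from the log2 CPM in the 6 samples, each profile less its Control mean, by the smallest root mean square difference. The fold changes of genes chosen in this way had to lie near that of the PHLDA gene, and are given only to describe them. Candidates had a symbol and averaged 50 normalized counts or more, which left 9639 for Phlda3. The 5 nearest to Phlda3 were Tnfrsf22, Sowahc, Trim7, Tp53inp1 and Azin2, at differences of 0.03 to 0.06 on the log2 scale and log2 fold changes that ranged up to 1.59. Tnfrsf22, a decoy receptor gene for the death ligand TRAIL, had 769 ± 23.8 normalized counts in Control and 2261 ± 33.6 in STZ (SD, n = 3). In GRCr8 it lies on the same chromosome as Phlda2, with 3 protein-coding genes between them, and it was not on the list of genes of the imprinted domain, so the counts and median of that list leave it out. Tp53inp1, a stress gene induced by p53, had 277 ± 15.2 and 830 ± 22.8 (SD, n = 3).

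The 5 nearest to Phlda2 were Slc7a9, Hmox1, Capg, Anxa8 and Plk2, at larger differences of 0.14 to 0.30 on the log2 scale. Hmox1, which encodes heme oxygenase 1, had 158 ± 10.2 normalized counts in Control and 544 ± 29.7 in STZ (SD, n = 3). The 5 nearest to Phlda1 were Lsm2, Ctdp1, Cyth2, Piezo1 and Sdc1, at differences of 0.01 to 0.02. Their log2 fold changes of 0.04 to 0.06 follow from this choice, since Phlda1 had similar levels in both groups.

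**Figure D4:**
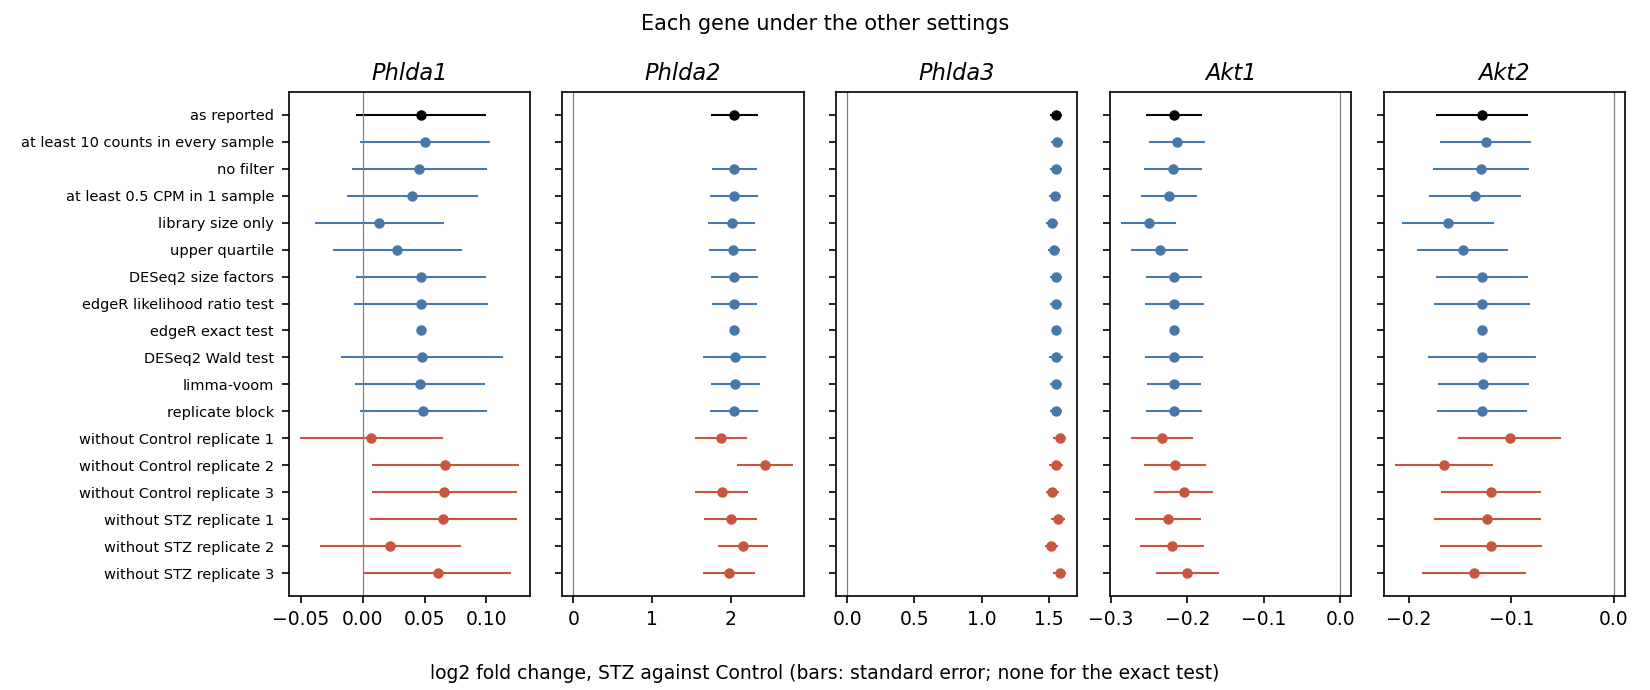
Log2 fold change of STZ against Control (x axis, a scale of its own in each panel) of the 5 genes as reported (black), under other filters, scalings and tests and with the replicate number as a block (blue), and with each sample left out (red), with standard errors as bars except for the exact test. Phlda3 stays between 1.52 and 1.58 and Akt1 between -0.25 and -0.20, while Phlda2 reaches 2.43 without Control replicate 2.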

How the data were processed

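The authors sequenced 100-bp single-end stranded mRNA libraries, aligned them with STAR 2.7.10a against Rnor6, and deposited raw counts of uniquely mapped reads per gene from featureCounts, without normalization. The annotation and strand setting are not given in the sources used here. Columns were assigned to samples by their labels. From these counts, TMM scaling, filterByExpr (minimum count 10, which left 11870 genes) and the quasi-likelihood test with Benjamini-Hochberg adjustment were run in edgeR 4.0.16 (R 4.3.3). A gene was called at an adjusted p-value under 0.05. The paper's additional threshold, an absolute log2 fold change over 1, was used as an alternative. A standard error is the size of the log2 fold change over the root of its F statistic. The members and lists were chosen with earlier results of these data known. Named from each list are up to 3 called genes with the smallest p, the kinases close to AKT, the 5 genes nearest each PHLDA gene and the nearest annotated neighbors; other listed genes were named after their values were seen, and some listed genes enter the counts but are not reported here by name. An exact permutation test of 3 samples against 3 cannot go below 0.1 (two-sided), and none is given. Tested on simulated data (11870 genes, 200 given a change), the fit recovered 186 and wrongly called 8. The simulation gave all genes the same dispersion and changed few of them, whereas 50.9% of genes were called in these data. Changes as small as many of those called here were not simulated, so these figures do not cover them. Replicates varied beyond sampling noise (chi-square per degree of freedom at least 1.85). Of 171 listed genes and members analysed, 170 matched the RefSeq table. The alternatives were 3 filters, 3 scalings, 4 tests (DESeq2 1.42.0 and limma-voom of limma 3.58.1 among them), a replicate block and each sample left out. Counts of 10430924 to 15191349 per sample limit the precision of low genes such as Phlda2.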

Additional observations from a re-analysis of the deposited data

How the results depend on the processing

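The log2 fold changes of the 5 genes kept their direction under every alternative run. The alternatives reuse the 6 samples on which the genes were selected, so they show only how the values depend on the processing. The value of Phlda1 stayed near or below its standard error, so its direction carries no weight. With one sample left out, Phlda1 ranged from 0.01 to 0.07, Phlda2 from 1.88 to 2.43, Phlda3 from 1.52 to 1.58, Akt1 from -0.23 to -0.20 and Akt2 from -0.17 to -0.10. Akt1 stood at -0.25 with library size only, where the median of all genes was -0.04, against -0.01 with TMM. Phlda2 had no value with at least 10 counts in every sample, which removes it.

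When an absolute log2 fold change over 1 was also required, 268 genes were higher and 132 lower over all genes tested, against 3070 and 2976, and 6 and 1 over all lists. By list, 0 kinases close to AKT were then higher, 0 PI3K and adaptor genes higher and 0 lower, 0 PDK1 and mTORC2 genes lower, 1 lipid phosphatase higher and 0 lower, 0 AKT phosphatases and inhibitors higher and 0 lower, 0 scaffolds higher and 0 lower, 2 substrates higher and 0 lower, 1 FOXO target higher and 0 lower, 0 PH family genes higher and 0 lower, 0 genes of the Phlda2 domain list (which does not hold Tnfrsf22) higher and 0 lower, and 2 ERK genes higher and 1 lower. Higher kinases close to AKT numbered 1 with library size only, 1 with the upper quartile and 1 with DESeq2's Wald test. With DESeq2's test the lower lipid phosphatases and the lower scaffolds numbered 1 each. The balance of all called genes was 2664 higher and 3485 lower with library size only.

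With one sample left out, the higher kinases close to AKT numbered 1 to 2 (1 without Control replicate 2 or STZ replicate 3), the lower lipid phosphatases 1 to 2 (1 without Control replicate 1, Control replicate 3 or STZ replicate 1), the higher AKT phosphatases and inhibitors 0 to 1 (0 without STZ replicate 3), the lower scaffolds 1 to 2 (1 without Control replicate 1, STZ replicate 1 or STZ replicate 2) and the lower FOXO targets 1 to 3 (1 without Control replicate 1). These causes were not tested.

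Control and STZ samples share replicate numbers. Deviations from the group means correlated between samples of 1 number at 0.0339, -0.0337 and 0.105 over 10341 genes. Between samples of unlike numbers they ran from -0.121 to 0.0832. Deviations from a mean of 3 samples are not independent, so these values cannot show whether the samples were paired. Under the replicate block, 3139 genes were higher and 3060 lower, Phlda3 stood at 1.55 and Akt1 at -0.22, and the counts of called genes in the 11 lists were 42 higher and 27 lower.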
